A study of Mus musculus with 7 samples.

Results

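Synaptic adhesion and organizer genes encode the surface and secreted proteins that join a presynaptic ending to its postsynaptic partner. They were followed here as 46 genes fixed by name, of the neurexin, neuroligin, leucine-rich-repeat, receptor phosphatase, contactin, SynCAM and related families. A gene was taken where a probe set carried its symbol alone, and its brightest such probe set on average stood for it. On that rule 45 of the 46 were measured, among 22180 genes in all. Cadm2 had no such probe set and was not analysed here.

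The RNA came from ribosomes of medial prefrontal cortex (mPFC) of mice that carried a ribosome tag and were crossed to a line with Cre recombinase under control of Arc, a gene switched on by neuronal activity. Cells active in the presence of tamoxifen acquired GFP-tagged ribosomes, which were then collected with their RNA by an antibody to GFP. The cocaine-activated group (4 arrays, numbered 4 to 7 by the sample titles) came from mice given cocaine at 15 mg/kg for 2 days. The shock-activated group (3 arrays, numbered 4 to 6) came from mice given 20 shocks of 0.5 mA, each lasting 2 s, for 2 days. Both groups share the tag, the Arc-driven Cre and tamoxifen, so the labelled cells are limited to those in which that Arc transgene was active. The labels used here give neither age, sex nor strain, and do not say whether arrays came from separate mice or pools, so the p-values reflect array-to-array spread alone, part of which may be technical.

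Across the synaptic cleft, presynaptic neurexins and LAR-type receptor phosphatases act as hubs that bind many postsynaptic partners. Neuroligins, LRRTM proteins and cerebellins bind neurexins, while Slitrk proteins, Il1rapl1 and several SALM proteins bind the phosphatases. Contactins and their associated proteins organise axon domains and axon contacts, and the immunoglobulin proteins of the SynCAM and NCAM families join like or related partners on facing membranes. Which of these a neuron makes is thought to shape which contacts it forms and whether they become excitatory or inhibitory.

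Values are log2 expression levels, so a difference of 1 is 2-fold, and every difference is cocaine minus shock. With no detection calls at hand, background was set from genes of olfactory and vomeronasal receptors, 95% of which averaged under 5.46. All 45 genes averaged above it. So did 9 of 10 excitatory neuron markers, but also 12 of 12 astrocyte and 14 of 14 vascular markers, so RNA typical of cells other than neurons was measured too. Fewer cells of a type and less RNA per cell cannot be told apart in such material. Cocaine array 6 stood apart: 13.5% of the 13769 genes above background lay more than 0.2 from their mean on the other arrays, against 6.14% to 10.3% on each of the other 6.

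The comparison asks whether cells engaged by a drug reward translate a different set of synapse-forming proteins from cells engaged by an aversive stimulus. The adhesion genes had closely similar levels in both groups. No array of RNA from before the precipitation was among those used, so how far the values reflect the labelled cells cannot be judged. By limma, 0 of 45 passed an adjusted p of 0.05, and 0% of all 22180 genes did (smallest adjusted p = 0.938 among the adhesion genes). At an unadjusted p under 0.05 there were 0 of 45, beside 3.1% of all genes. The groups did not overlap for 2 of 45 (4.44%), Lrfn2 and Ncam1, beside 2.37% of all genes. The cocaine mean was higher for 27 of 45 (60%), beside 50.9% of all genes, and the median difference was 0.018, beside 0.0016 over all genes. These descriptive values moved with the scaling and with single arrays. Genes without overlap numbered 0 after quantile normalization (4.69% of all genes) and 7 after median centring of the arrays (11.4% of all genes). They numbered 2 to 6 with an array left out (4.04% to 9.68% of all genes). Median centring gave 31 genes with a higher cocaine mean (68.9%, beside 62% of all genes) and a median of 0.038, beside 0.022 over all genes. With an array left out the median ran from -0.00044 without shock array 6 to 0.032 without cocaine array 6, and the number with a higher mean from 22 to 31 in the same fits.

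Differences ran from -0.113 for Cntnap4 to 0.165 for Lrfn2. For all 45 genes the 95% interval of the difference, each taken alone, lay inside 1.5-fold either way (0.58 on the log2 scale), and for 37 it lay inside 1.2-fold (0.26). Of the genes above background, 98.2% and 75.1% had intervals that narrow. The lowest bound was -0.381, for Slitrk3 (0.768-fold), and the highest 0.347, for Lrfn2 (1.27-fold). All 45 also lay inside 1.5-fold without moderation of the variances and with any single array left out. Values repeated exactly between arrays for 20 of the 45 genes (44.4%) and for 66.9% of all genes. Repeats within a group lower its SD. Some repeats also crossed the groups, as for Flrt3 and Lrrc4, and make arrays of both groups equal. Their part in the small differences was not tested.

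**Figure D1:**
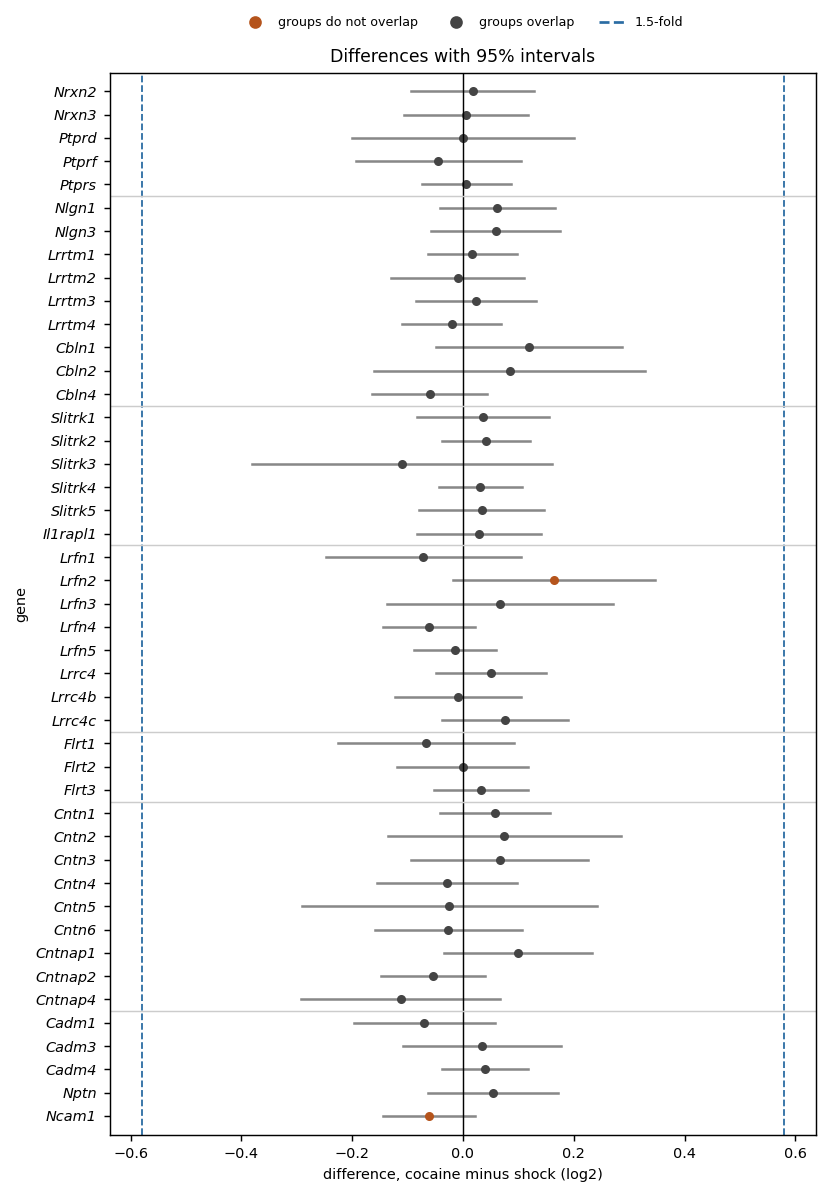
Difference of cocaine minus shock (log2, x axis) for 45 synaptic adhesion genes (rows), with bars for 95% limma intervals, grey lines between role groups and dashed lines at 1.5-fold. All bars stay inside the dashed lines, from -0.381 to 0.347, and the 2 genes whose groups do not overlap, Lrfn2 and Ncam1, have intervals that include 0.

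Neurexins and LAR-type receptor phosphatases, the presynaptic hubs, had the smallest median absolute difference of the 7 role groups (0.0063), with 4 of 5 higher in the cocaine mean and a median of 0.0056. Nrxn2, a neurexin, had 9.84, 9.84, 9.86 and 9.93 on cocaine arrays 4, 5, 6 and 7, against 9.80, 9.93 and 9.82 on shock arrays 4, 5 and 6 (arrays are listed in this order throughout). The ranges overlapped almost wholly, and the difference was 0.018 (SE 0.046). Nrxn3 averaged 11.50 ± 0.065 (SD, n = 4) in cocaine arrays and 11.49 ± 0.045 (SD, n = 3) in shock arrays. Among the phosphatases, Ptprf (LAR itself) had 8.53, 8.58, 8.42 and 8.50 in cocaine arrays, against 8.43, 8.62 and 8.61 in shock arrays. Shock array 4 lay with the lowest cocaine array, and the other shock arrays were above all cocaine arrays, giving -0.045 (SE 0.062). Ptprd, the partner of several Slitrk proteins and of Il1rapl1, differed by 0.0004 (SE 0.084), with 8.49 on cocaine array 6 and 8.47 on shock array 6 as the low values of each group. Ptprs differed by 0.0063 with a range over all 7 arrays of 0.077.

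Neurexin ligands were higher in the cocaine mean for 6 of 9, with a median of 0.024. Nlgn1, the neuroligin of excitatory synapses, had 9.06, 9.02, 9.06 and 9.14 in cocaine arrays, against 9.07, 8.98 and 8.97 in shock arrays. Shock array 4 reached into the cocaine range and the difference was 0.062 (SE 0.044, 95% interval -0.042 to 0.166). Nlgn3, found at excitatory and inhibitory synapses, averaged 9.97 ± 0.063 (SD, n = 4) in cocaine arrays and 9.91 ± 0.060 (SD, n = 3) in shock arrays, a difference of 0.060. The LRRTM genes encode postsynaptic leucine-rich-repeat proteins of excitatory synapses. Their differences were 0.017 for Lrrtm1, -0.0096 for Lrrtm2, 0.024 for Lrrtm3 and -0.020 for Lrrtm4, none larger than its SE.

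Cerebellins are secreted proteins that bridge neurexins to postsynaptic receptors. Cbln1 had 6.49, 6.49, 6.49 and 6.57 in cocaine arrays, against 6.22, 6.43 and 6.51 in shock arrays. Its low values were on shock arrays 4 and 5, and shock array 6 lay inside the cocaine range. The difference of 0.119 (SE 0.070) did not pass limma (adjusted p = 0.938). It became 0.036 with shock array 4 left out and 0.179 with shock array 6 left out. Cbln2 had 7.65 to 7.69 on the 4 cocaine arrays, against 7.32, 7.75 and 7.69 on the shock arrays. Its difference of 0.084 (SE 0.103) came with 1 low array and was -0.051 without shock array 4. For Cbln4 the values ran from 6.98 to 7.11 in cocaine arrays and from 7.08 to 7.14 in shock arrays, overlapping, with a difference of -0.060 (SE 0.043).

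Slitrk proteins and Il1rapl1, postsynaptic ligands of the LAR-type phosphatases, had a higher cocaine mean in 5 of 6, with a median of 0.032. Slitrk2 had 7.82, 7.82, 7.82 and 7.83 in cocaine arrays, against 7.79, 7.82 and 7.73 in shock arrays. All 4 cocaine arrays were at or above the highest shock array, and the difference was 0.042 (SE 0.033). Slitrk4 had 8.57, 8.56, 8.55 and 8.56 in cocaine arrays, against 8.55, 8.49 and 8.55 in shock arrays, a difference of 0.031 (SE 0.032). Slitrk1 and Slitrk5 differed by 0.036 and 0.034, and Il1rapl1, a gene linked to intellectual disability in humans, by 0.029. Slitrk3, whose protein is known at inhibitory synapses, was the exception in sign. It had 9.10, 8.96, 8.89 and 9.08 in cocaine arrays, against 9.39, 8.98 and 8.99 in shock arrays. The value on shock array 4 was the highest by far, and the difference of -0.110 (SE 0.113) was 0.025 without that array.

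SALM proteins (Lrfn genes) and netrin-G ligands (Lrrc4 genes) are postsynaptic leucine-rich-repeat proteins, several of which bind the scaffold protein PSD-95. The cocaine mean was higher for 4 of 8, with a median of 0.021. Lrfn2, which encodes the SALM protein known to associate with NMDA receptors, had 7.35, 7.33, 7.39 and 7.43 in cocaine arrays, against 7.28, 7.02 and 7.32 in shock arrays. The groups did not overlap, but the lowest cocaine array and the highest shock array were 0.007 apart and shock array 5 was far below the others. Lrfn2 averaged 7.37 ± 0.045 (SD, n = 4) in cocaine arrays and 7.21 ± 0.163 (SD, n = 3) in shock arrays, a difference of 0.165 (SE 0.077, 95% interval -0.018 to 0.347). This was the smallest p among the adhesion genes by limma (unadjusted p = 0.0705, adjusted p = 0.938). Leaving out shock array 5 gave 0.071, and leaving out shock array 6 gave 0.222.

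Lrfn4 ran the other way, with 7.11, 7.11, 7.11 and 7.08 in cocaine arrays, against 7.19, 7.11 and 7.18 in shock arrays. Shock array 5 matched the cocaine arrays and the other shock arrays were above them, giving -0.061 (SE 0.035). The remaining SALM genes differed by -0.072 for Lrfn1, 0.066 for Lrfn3 and -0.015 for Lrfn5, and Lrfn3 by -0.025 without shock array 4. Of the netrin-G ligands, Lrrc4c (the partner of Ntng1) ran from 9.02 to 9.13 in cocaine arrays and from 8.90 to 9.04 in shock arrays, a difference of 0.076 (SE 0.048). Lrrc4, the partner of Ntng2, differed by 0.051 and Lrrc4b, which binds LAR-type phosphatases, by -0.0089. Lrrc4 read 7.70 on 5 of the 7 arrays, 7.74 on cocaine array 7 and 7.58 on shock array 6, so its difference was 0.010 without shock array 6.

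FLRT proteins, which bind latrophilins and Unc5 receptors on facing cells, had a lower cocaine mean in 2 of 3, with a median of -0.0007. Flrt1 had 8.70, 8.86, 8.70 and 8.88 in cocaine arrays, against 8.90, 8.90 and 8.75 in shock arrays. Each group held high and low arrays, and the difference was -0.066 (SE 0.067). Flrt3 was listed at 7.14 on 6 arrays and at 7.04 on shock array 6, so its difference of 0.032 (SE 0.036) came from that array alone. Flrt2 differed by -0.0007.

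Contactins and contactin-associated proteins had a higher cocaine mean in 4 of 9, with a median of -0.025. Their median range over the 7 arrays was 0.252, against 0.168 for all 45 genes and 0.228 for the genes above background. Cntnap1, which with Cntn1 forms the junctions of axon and myelin beside the nodes of Ranvier, had 10.06, 10.07, 10.18 and 10.23 in cocaine arrays, against 9.97, 10.07 and 10.07 in shock arrays. Cocaine arrays 6 and 7 were above all shock arrays, and cocaine arrays 4 and 5 were level with shock arrays 5 and 6. The difference was 0.099 (SE 0.056, 95% interval -0.035 to 0.233), and that of Cntn1 was 0.058 (SE 0.042). Cntn2 and Cntnap2, partners in clustering axonal potassium channels, differed by 0.075 and -0.054. Cntnap2 is also an autism-linked gene in humans, and its values ran from 9.94 to 10.03 in cocaine arrays and from 10.03 to 10.11 in shock arrays, meeting at 10.03.

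Cntnap4, known from cortical interneurons, had 7.33, 7.30, 7.09 and 7.33 in cocaine arrays, against 7.33, 7.32 and 7.48 in shock arrays. Cocaine array 6 was the low value and shock array 6 the high one, while the other 5 arrays lay within 0.038. The difference of -0.113 (SE 0.075) was -0.055 without cocaine array 6. Inhibitory neuron markers were lower in the cocaine mean in 11 of 16, with a median of -0.047. Their mean deviation from each gene's 7-array mean was -0.051, 0.016, -0.002 and -0.062 on cocaine arrays, against 0, -0.017 and 0.117 on shock arrays. It was thus highest on shock array 6, as Cntnap4 was, but not lowest on cocaine array 6. The part of inhibitory neurons in the Cntnap4 values was not tested. Cntn3 differed by 0.066, Cntn4 by -0.029, Cntn5 by -0.025 and Cntn6 by -0.027. Of these axonal contactins, Cntn5 varied most, from 7.21 to 7.59 within the cocaine arrays and from 7.24 to 7.57 within the shock arrays.

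SynCAM, neuroplastin and NCAM genes encode immunoglobulin adhesion proteins, and 3 of the 5 measured had a higher cocaine mean (median 0.034). Ncam1, the neural cell adhesion molecule, had 11.44, 11.44, 11.40 and 11.43 in cocaine arrays, against 11.47, 11.45 and 11.54 in shock arrays. The groups did not overlap, with 0.011 between shock array 5 and the nearest cocaine array. Ncam1 averaged 11.43 ± 0.018 (SD, n = 4) in cocaine arrays and 11.49 ± 0.047 (SD, n = 3) in shock arrays, a difference of -0.061 (SE 0.035, 95% interval -0.144 to 0.022). It did not pass limma (unadjusted p = 0.125, adjusted p = 0.938), and the difference was -0.035 without shock array 6. Cadm1 (SynCAM) had 9.72, 9.75, 9.68 and 9.72 in cocaine arrays, against 9.75, 9.71 and 9.90 in shock arrays. Shock array 6 alone was above the rest, and the difference of -0.070 (SE 0.053) was -0.012 without it. Cadm3 differed by 0.034 and Cadm4 by 0.040. Nptn, the gene of neuroplastin, differed by 0.054 (SE 0.049).

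**Figure D2:**
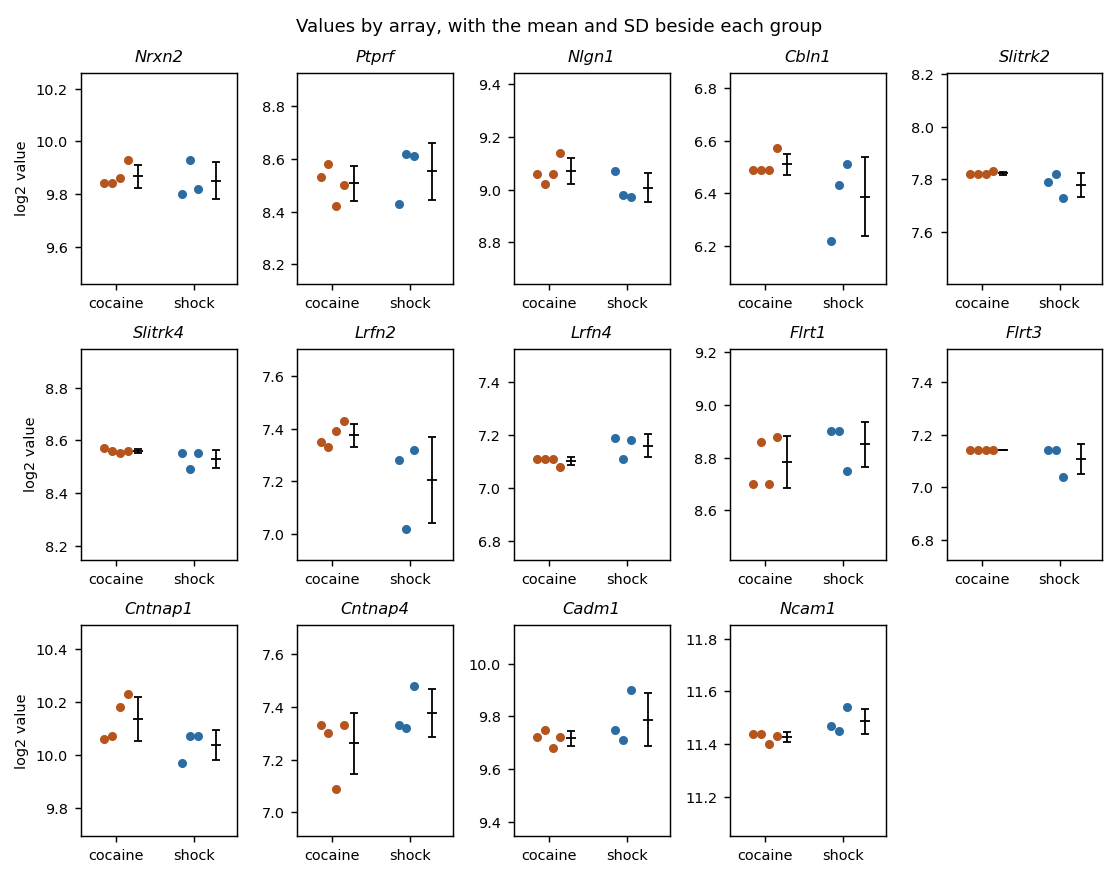
Log2 value (y axis, the same span in every panel) on each cocaine array (4 points, left) and shock array (3 points, right) for 14 adhesion genes, with the mean and SD as a dash and bar beside the points. Lrfn2 and Ncam1 separate the groups by 0.007 and 0.011, and in Cbln1, Lrfn2, Flrt3, Cntnap4 and Cadm1 a single array lies away from the rest of its group.

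The spread between arrays of the same group was as large as most differences between groups. Over the 45 genes the median SD within groups was 0.061 and the median absolute difference 0.045. Among genes above background these medians were 0.077 and 0.041. An adhesion gene lay more than 0.2 from its mean on the other 6 arrays in 11 instances, 5 on cocaine and 6 on shock arrays, spread over 9 genes. On shock array 4 these were Slitrk3 (0.391 above), Cbln2 (-0.373), Cbln1 (-0.272) and Lrfn3 (-0.258), and on shock array 5 Lrfn2 (-0.328). Cocaine array 6 held low values of Cntnap4 (-0.257), Cntn5 (-0.249) and Lrfn1 (-0.241), and cocaine array 7 high values of Cntn2 (0.215) and Cntn5 (0.201). Cntn5 was also low on shock array 6 (-0.209). Cocaine array 7 held the highest value of 15 of the 45 genes and cocaine array 6 the lowest of 14.

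**Figure D3:**
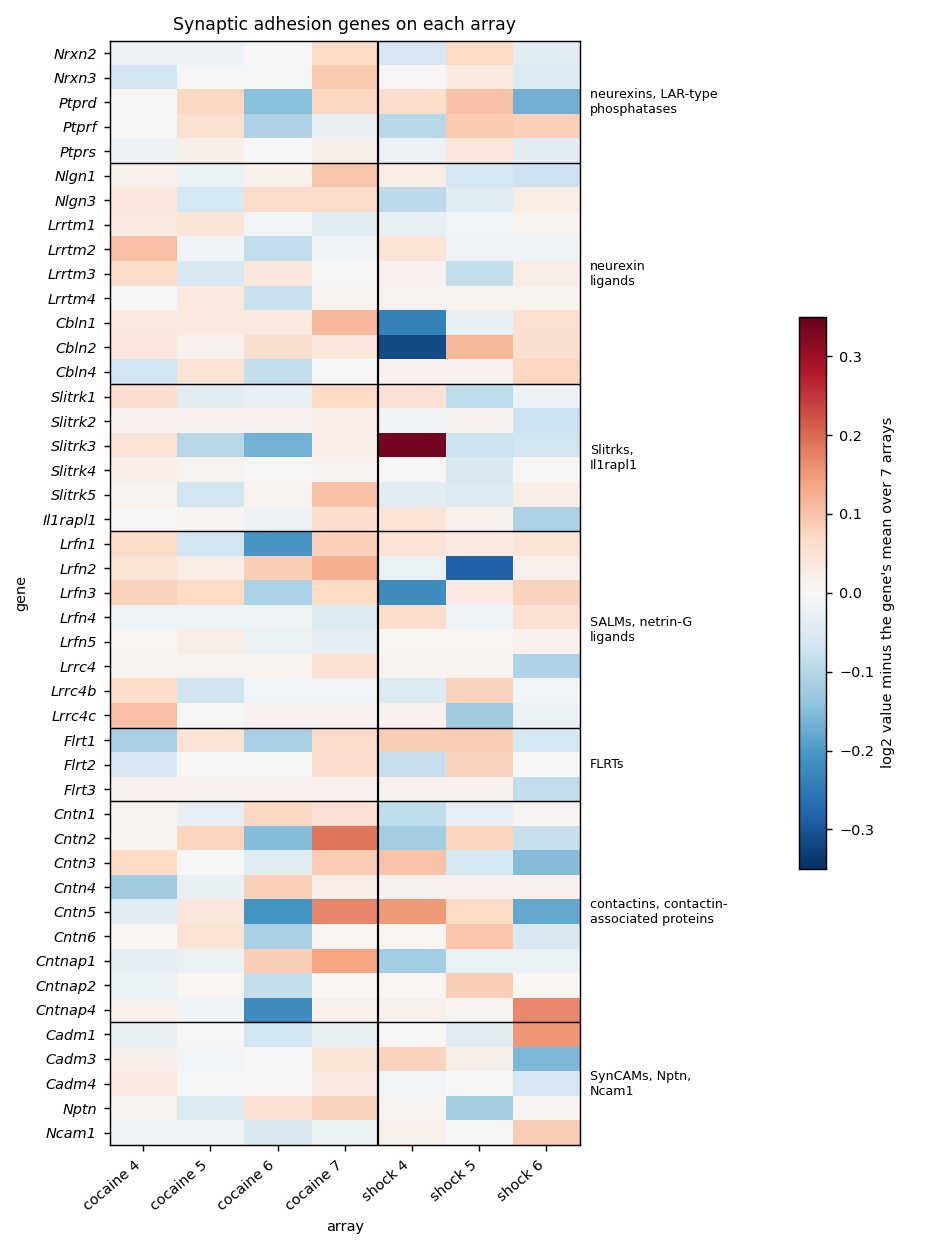
Log2 value minus the gene's mean over 7 arrays (colour, red higher and blue lower) for 45 adhesion genes (rows, in role groups) on 4 cocaine arrays and 3 shock arrays (columns). The strongest colours are single cells, such as Slitrk3 and Cbln2 on shock array 4 and Lrfn2 on shock array 5, and the role groups hold both colours on either side.

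Averaging each gene's deviation from its own 7-array mean gave a score per array, which was 0.009, 0.000, -0.033 and 0.044 for the 45 genes on the cocaine arrays, against -0.007, 0.000 and -0.013 on the shock arrays. The cocaine arrays thus held the lowest and the highest score, with the shock arrays between them. The contactin group had the widest scores, -0.065 on cocaine array 6 and 0.078 on cocaine array 7. Immediate early genes, the rapid transcriptional response of neurons to activity, scored 0.293, 0.450, -0.216 and 0.196 on the cocaine arrays, against -0.547, 0.365 and -0.541 on the shock arrays. Their cocaine mean was higher in 22 of 22 (median 0.39), beside 50.9% of all genes, and 0 passed limma's adjusted threshold. By limma 2 of 22 had an unadjusted p under 0.05 (Npas4 at 1.49 and Btg2 at 1.01), beside 3.1% of all genes. Groups did not overlap for 0 of 22, beside 2.37% of all genes. Shock array 5 exceeded shock arrays 4 and 6 by 0.912 and 0.906 in the immediate early score. The adhesion score differed by 0.013 at most among the shock arrays, but it is a mean in which opposite deviations cancel. On shock array 5 the role groups scored from -0.041 (Slitrk proteins and Il1rapl1) to 0.068 (neurexins and LAR-type receptor phosphatases). The part of the immediate early genes, or of the activity they report, in the adhesion gene values was not tested.

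Several cell marker lists, of neurons and of other cells, moved between arrays by more than the adhesion genes did. Vascular markers had a lower cocaine mean in 14 of 14 (median -0.286), with scores of -0.365 to 0.029 on cocaine arrays and 0.001 to 0.388 on shock arrays. Astrocyte markers were lower in 12 of 12 (median -0.135), with scores of -0.185 to 0.111 on cocaine arrays and -0.022 to 0.15 on shock arrays. Striatal neuron markers were higher in 8 of 8 (median 0.148), with scores of 0.011 to 0.172 on cocaine arrays and -0.137 to -0.037 on shock arrays. Medians were 0.0038 for excitatory neuron (6 of 10 higher), 0.026 for oligodendrocyte lineage (6 of 11) and -0.042 for microglia markers (3 of 10). By limma, unadjusted p was under 0.05 for 5 of 14 vascular, 3 of 8 striatal neuron and 1 of 11 oligodendrocyte lineage markers. It was so for 0 astrocyte, excitatory neuron and microglia markers, and for 3.1% of all genes. Groups did not overlap for 3 vascular, 3 striatal neuron, 1 oligodendrocyte lineage and 1 excitatory neuron marker, beside 2.37% of all genes. No gene of these lists passed limma's adjusted threshold, and the part of these cells in the adhesion gene values was not tested.

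**Figure D4:**
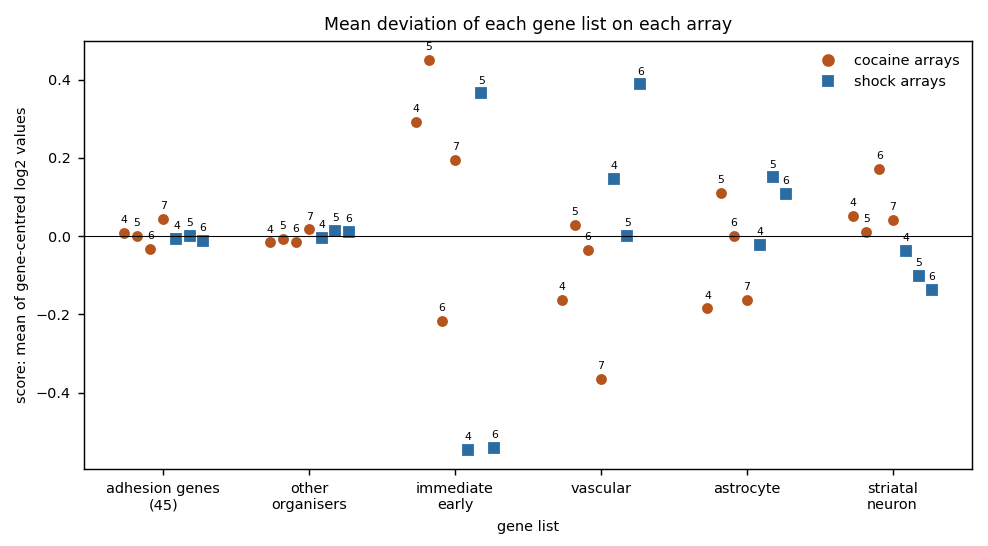
Score per array (y axis, mean of gene-centred log2 values) for the 45 adhesion genes and 5 other gene lists (x axis), with cocaine arrays as circles and shock arrays as squares, numbered by array. The adhesion scores stay between -0.033 and 0.044, while immediate early gene scores run from -0.547 to 0.450.

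Other genes of the same biology were read from a list of 73 further synaptic organisers, of which 70 were measured and the rest were not analysed here. The cocaine mean was higher for 33 and lower for 37, with a median of -0.0047. By limma 0 of 70 passed in either direction, and 0% of all genes did. An unadjusted p under 0.05 was reached by 1 of 70, beside 3.1% of all genes. Groups did not overlap for 1 of 70, beside 2.37% of all genes. Both counts were C1ql4, a secreted C1q-like protein gene under the background level (4.67 in the shock mean). It differed by -0.260 (SE 0.081, limma unadjusted p = 0.016). The next by p were Amigo1, a leucine-rich-repeat adhesion gene (0.077), Sparcl1 (-0.20), C1ql2 (-0.144), Cntnap3 (-0.165) and Tenm2, a teneurin gene (-0.097). Sparcl1 encodes hevin, a matrix protein released by astrocytes, and read 11.92, 12.18, 12.19 and 11.91 in cocaine arrays, against 12.13, 12.22 and 12.41 in shock arrays. Its 2 low values were on cocaine arrays 4 and 7, which also had the lowest astrocyte scores (-0.185 and -0.164). The part of astrocyte RNA in the Sparcl1 values was not tested. The 95% interval lay inside 1.5-fold for 70 of 70 of these organisers, and for 7 of 22 immediate early genes.

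Of the 45 genes, 2 had a further probe set. The second probe set of Nrxn2 read 8.46, 8.46, 8.55 and 8.28 in cocaine arrays, against 8.36, 8.46 and 8.73 in shock arrays, a difference of -0.080 (SE 0.101) where the kept one gave 0.018. For Lrrtm4 the second probe set read 2.54 to 2.91, under the background level, and differed by 0.108 (SE 0.080), against -0.020 for the kept one. Neither pair agreed in sign, and all 4 differences were within 1.5 SE of 0.

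A RefSeq gene table places 7 of the adhesion genes wholly inside the span of another protein-coding gene. Lrrtm1, Lrrtm2 and Lrrtm3 lie in the genes Ctnna2, Ctnna1 and Ctnna3, which encode α-catenins, the links between cadherins and actin. Ctnna2 averaged 8.50 ± 0.103 (SD, n = 4) in cocaine arrays and 8.42 ± 0.113 (SD, n = 3) in shock arrays, and Ctnna1 averaged 7.76 ± 0.077 in cocaine arrays and 7.86 ± 0.217 in shock arrays. Ctnna3 averaged 5.77 in each group, a difference of 0.000. The other hosts differed by 0.084 for Snd1 (around Lrrc4), 0.082 for Pcx (around Lrfn4), -0.060 for Macrod1 (around Flrt1) and -0.028 for Macrod2 (around Flrt3). By limma 0 of the 7 hosts passed (smallest adjusted p = 0.938).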

How the data were processed

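The authors deposited 1 table of log2 expression values for 41345 probe sets on 7 one-colour arrays. The log2 scale was read from the values (1.12 to 13.44, array medians 5.44 to 5.47). Per the submitters' processing notes, Transcriptome Analysis Console was used; how values were summarized, background-corrected, normalized and filtered is not given in the sources used here. Since medians were near equal, a difference is relative to the bulk of probe sets. The number of arrays limits the precision.

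The platform annotation gave 23521 probe sets 1 symbol, 1814 several and 16010 none; 1082 genes had more than 1 probe set. Groups and array numbers came from the labels. limma 3.58.1 in R 4.3.3 (lmFit, eBayes, two-sided, all 7 arrays, no covariate) was fitted to all 22180 genes, with Benjamini-Hochberg adjustment at 0.05. Scripts were tested on simulated data.

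The genes, lists and tests were chosen with earlier results of these data known. Values by array are given for the 2 genes of smallest p in each of 7 role groups and those whose groups did not overlap, and for the 6 further organisers the smallest p decided. Values by array or range of other genes, the 0.2 limit and the fold limits were chosen after the values were seen. Alternatives were median centring, quantile normalization, each array left out, no dim genes, the mean of probe sets, trend and robust or no moderation, array weights and the title number as a block. Genome positions are not given, since the sources name no build.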

Additional observations from a re-analysis of the deposited data

Results flagged for a closer look

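Within the cocaine group, 5 of 53 measures (45 genes and 8 scores) had 1 array whose gap to its nearest neighbour, as a share of the group's range, exceeded the 95% critical value of Dixon's test, where about 2.65 would by chance. Cocaine array 7 was highest for Cbln1 (1) and Lrrc4 (1) and lowest for Lrfn4 (0.8923). Cocaine array 6 was lowest for Lrfn3 (0.9217) and Cntnap4 (0.8445). In 3 of the 5, Cbln1, Lrrc4 and Lrfn4, cocaine arrays had identical values, which favours a large gap, so the number past the limit cannot be read against 2.65. The shock group, with 3 arrays, was not put to this test.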

How the results depend on the processing

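With each of the 15 alternatives, 0 of 45 adhesion genes and 0 of all genes passed limma's adjusted threshold. The number at an unadjusted p under 0.05 was 0 to 2 with an array left out (2 without shock array 6, Cbln1 and Lrfn2, and 1 without shock array 5, Lrfn4) and 0 otherwise. The share of all genes at that p was not computed for these fits, so the counts cannot be set against it. The 2 genes without overlap became 0 after quantile normalization (4.69% of all genes) and 7 after median centring (11.4%). They numbered 2 to 6 with an array left out, beside 4.04% to 9.68% of all genes. There were 5 without cocaine array 5 (5.8% of all genes) and 5 without shock array 6 (8.41%). Without shock array 4 there were 6 (8.7%), and without shock array 5 also 6 (9.68%). Fewer arrays in a group make a lack of overlap easier. Elsewhere the cause was not tested. With an array left out, 27 of 45 differences kept their sign in all 7 fits, 17 turned in at least 1, and that of Flrt3 was 0 without shock array 6. Of the 45, 43 turned or moved by over 1.5 times in at least 1 such fit. Those that turned ranged over -0.00902 to 0.059 (Nrxn2), -0.0236 to 0.0284 (Nrxn3), -0.082 to 0.0504 (Ptprd), -0.01 to 0.0283 (Ptprs), -0.0446 to 0.0178 (Lrrtm2), -0.0117 to 0.045 (Lrrtm3), -0.0362 to 0.0032 (Lrrtm4), -0.0514 to 0.168 (Cbln2), -0.181 to 0.0253 (Slitrk3), -0.0177 to 0.0601 (Il1rapl1), -0.025 to 0.125 (Lrfn3), -0.037 to 0.0272 (Lrrc4b), -0.0409 to 0.0392 (Flrt2), -0.06 to 0.00994 (Cntn4), -0.121 to 0.0428 (Cntn5), -0.0636 to 0.0132 (Cntn6) and -0.0356 to 0.0841 (Cadm3). Other alternatives turned 8 genes. Quantile normalization gave -0.00035 for Ptprd and 0.00206 for Flrt2. Median centring gave 0.0106 for Lrrtm2, 0.00532 for Lrfn5, 0.0112 for Lrrc4b and 0.0194 for Flrt2. The mean of probe sets gave -0.0308 for Nrxn2 and 0.044 for Lrrtm4, and array weights gave 0.00461 for Flrt2.

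Arrays of the 2 groups share the title numbers 4, 5 and 6. The deviations of same-numbered arrays from their group means correlated over genes at 0.128, 0.064 and 0.158, and the 9 pairs with different numbers at -0.118 to 0.09. All numbered arrays that have a partner correlated best with it, except shock array 5 (0.09 with cocaine array 7). All 3 same-number values were positive, but the labels name no shared batch, so the numbers were not taken to pair the arrays in the main fit. Whether same-numbered arrays share a batch was not tested. With the replicate block, the median difference was 0.00544 with 24 of 45 higher, and 0 genes were called. Nrxn2 (-0.00352), Nrxn3 (-0.0236) and Ptprd (-0.0238) turned. Title number 7 has no shock array, so cocaine array 7 adds nothing to the differences of the block fit. They equal those of the fit without cocaine array 7, so these shifts do not show an effect of pairing.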
